A study of Mus musculus with 24 samples.

Results

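A set of 10 genes of the heat shock response was followed through the mRNA libraries of the mouse nucleus accumbens (NAc), a ventral striatal region of reward and motivation. They were *Hspa1a*, *Hspa1b*, *Hspa8*, *Hsph1*, *Dnajb1*, *Hsp90aa1*, *Chordc1*, *Hspb1*, *Hspd1* and *Hspe1*, and they made up 10 of the 38293 genes in the count table. The genes were chosen by name with their levels and their changes with stress in all 4 groups already known, so that every value of these 10 genes is given here as a description, without a test. The mice were C57BL/6J males and females, 9 weeks old by the labels and without any transgene named. Stressed males (SM) and stressed females (SF) had gone through subchronic variable stress (SCVS), an alternation of foot shock, tail suspension and restraint, while unstressed males (NSM) and unstressed females (NSF) stayed in their home cages. The females were in estrus or proestrus, and tissue was taken the day after the last stressor. Each of the 3 libraries per group was made from the polyadenylated RNA of 10 NAc punches pooled from 5 mice, so the spread between libraries is a spread between pools and single mice are not seen.

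Heat shock proteins are chaperones that bind unfolded proteins and help them fold, keep them from clumping or pass them on for degradation. In the cytosol, HSP70 proteins work with a J-domain partner that loads them and an exchange factor that resets them, and HSP90 proteins take over late folding steps of kinases and steroid hormone receptors. Under proteotoxic stress the transcription factor HSF1 binds heat shock elements, repeats of the unit GAA in alternating orientation, and raises the transcription of the inducible members. In neurons, as in other cells, some members such as *Hspa8* are made constantly at a high level.

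Between 41076780 and 60867747 reads were counted per library. All 10 genes passed the filter on low counts, as did 18593 genes in all. Expression is given as CPM, edgeR's read count relative to the TMM-scaled library size, and differences as log2 fold changes with standard errors (SE) from limma's fit to all 12 libraries. Levels of different genes are compared only as RPKM, the CPM divided by the length of the annotated exons in kilobases. Markers of striatal projection neurons (9 of 9, *Drd1a* and *Penk* among them) were detected in every library, with a summed level of 4368 to 5570 CPM.

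The promoters are shown first, because the heat shock element is what most of these genes are known to share. The genes were chosen by name as heat shock genes, so the shares below are a description and not an independent result. RefSeq promoter windows of GRCm38.p6, running from 250 bases before to 50 bases after an annotated start, were found for 8 of the 10 genes, and not for *Hspa8* and *Hsp90aa1*. They were searched for pairs of units in opposite orientation, GAANNTTC (head to head) or TTCNNGAA (tail to tail). Either pair reads the same on both strands. At least 1 pair was found in a window of 7 of these 8 genes, against 17.0% of 26742 genes with a window, likewise counted over all windows of a gene. Of 32544 single windows 15.1% held a pair (7.89% GAANNTTC and 8.55% TTCNNGAA). Runs of 3 alternating units, GAANNTTCNNGAA or its reverse complement TTCNNGAANNTTC, which overlap the pairs, were found in 4 of the 8 (*Hspd1*, *Hspe1*, *Hsph1* and *Chordc1*), against 0.669% of all genes and 0.608% of all windows. No pair was found in the windows of *Dnajb1*. These counts by gene include the nearly identical windows of *Hspa1a* and *Hspa1b* and a stretch shared by *Hspd1* and *Hspe1*, so they repeat some sequence. A match is a run of letters, not a measured binding site. The windows of 6 genes are printed with the matched pairs in capitals: both inducible HSP70 genes for their near identity, *Chordc1* and *Hsph1* for units at and after the start, *Hspe1* for the window it shares with *Hspd1*, and *Hspb1* as the promoter of the small heat shock protein.
Hspa1b (GRCm38.p6, chr17:34959189-34959488, minus strand): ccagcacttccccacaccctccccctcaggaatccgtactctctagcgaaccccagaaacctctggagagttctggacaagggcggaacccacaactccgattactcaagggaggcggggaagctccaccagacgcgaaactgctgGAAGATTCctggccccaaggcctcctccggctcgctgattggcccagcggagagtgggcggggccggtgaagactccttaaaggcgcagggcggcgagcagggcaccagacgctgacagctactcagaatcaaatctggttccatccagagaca
Hspa1a (GRCm38.p6, chr17:34972107-34972406, minus strand): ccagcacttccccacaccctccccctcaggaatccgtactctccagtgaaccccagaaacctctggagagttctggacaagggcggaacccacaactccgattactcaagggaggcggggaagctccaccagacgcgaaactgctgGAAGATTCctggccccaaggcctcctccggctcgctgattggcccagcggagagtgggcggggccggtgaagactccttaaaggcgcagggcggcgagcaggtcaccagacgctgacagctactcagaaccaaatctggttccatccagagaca
Chordc1 (GRCm38.p6, chr9:18292017-18292316, plus strand): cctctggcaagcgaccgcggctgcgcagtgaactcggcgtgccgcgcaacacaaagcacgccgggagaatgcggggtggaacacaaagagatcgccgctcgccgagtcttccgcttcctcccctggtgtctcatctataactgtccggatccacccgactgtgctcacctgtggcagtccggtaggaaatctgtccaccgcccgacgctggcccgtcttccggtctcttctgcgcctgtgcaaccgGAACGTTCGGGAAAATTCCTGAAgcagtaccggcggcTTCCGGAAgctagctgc
Hsph1 (GRCm38.p6, chr5:149636287-149636586, minus strand): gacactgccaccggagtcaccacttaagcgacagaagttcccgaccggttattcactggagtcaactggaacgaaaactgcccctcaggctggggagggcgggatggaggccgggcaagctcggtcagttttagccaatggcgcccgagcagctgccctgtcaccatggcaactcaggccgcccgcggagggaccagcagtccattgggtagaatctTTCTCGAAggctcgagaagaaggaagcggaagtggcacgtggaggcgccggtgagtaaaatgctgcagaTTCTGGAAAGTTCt
Hspe1 (GRCm38.p6, chr1:55087898-55088197, plus strand): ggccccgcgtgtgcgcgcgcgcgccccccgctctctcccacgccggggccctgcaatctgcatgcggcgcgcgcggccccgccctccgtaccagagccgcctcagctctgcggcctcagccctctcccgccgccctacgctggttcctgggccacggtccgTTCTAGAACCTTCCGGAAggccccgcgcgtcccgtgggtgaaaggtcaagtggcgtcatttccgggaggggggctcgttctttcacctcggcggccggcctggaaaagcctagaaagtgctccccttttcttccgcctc
Hspb1 (GRCm38.p6, chr5:135887669-135887968, plus strand): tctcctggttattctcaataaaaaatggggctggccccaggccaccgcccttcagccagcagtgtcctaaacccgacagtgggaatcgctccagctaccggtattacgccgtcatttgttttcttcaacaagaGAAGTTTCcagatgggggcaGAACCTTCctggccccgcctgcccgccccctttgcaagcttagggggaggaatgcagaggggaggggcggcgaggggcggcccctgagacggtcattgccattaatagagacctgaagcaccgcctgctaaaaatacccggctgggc

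The windows of *Hspa1b* and *Hspa1a* differed at 4 of 300 bases, and both held 1 head-to-head pair from position -104 to -97, counted from 0 at the first base of the gene. *Chordc1* held 5 overlapping or neighboring pairs between positions -4 and 40, around its start. *Hsph1* held pairs at -33 to -26 and at 36 to 48. The genes *Hspd1* and *Hspe1* lie head to head, and 285 bases were shared by the *Hspe1* window and the second window of *Hspd1*, so that their 3 pairs are one and the same stretch. Of the 62 other chaperone genes compared with them, 49 had a window, of which 14 held either pair and 1, *Dnajb6*, the run of 3 units.

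**Figure D1:**
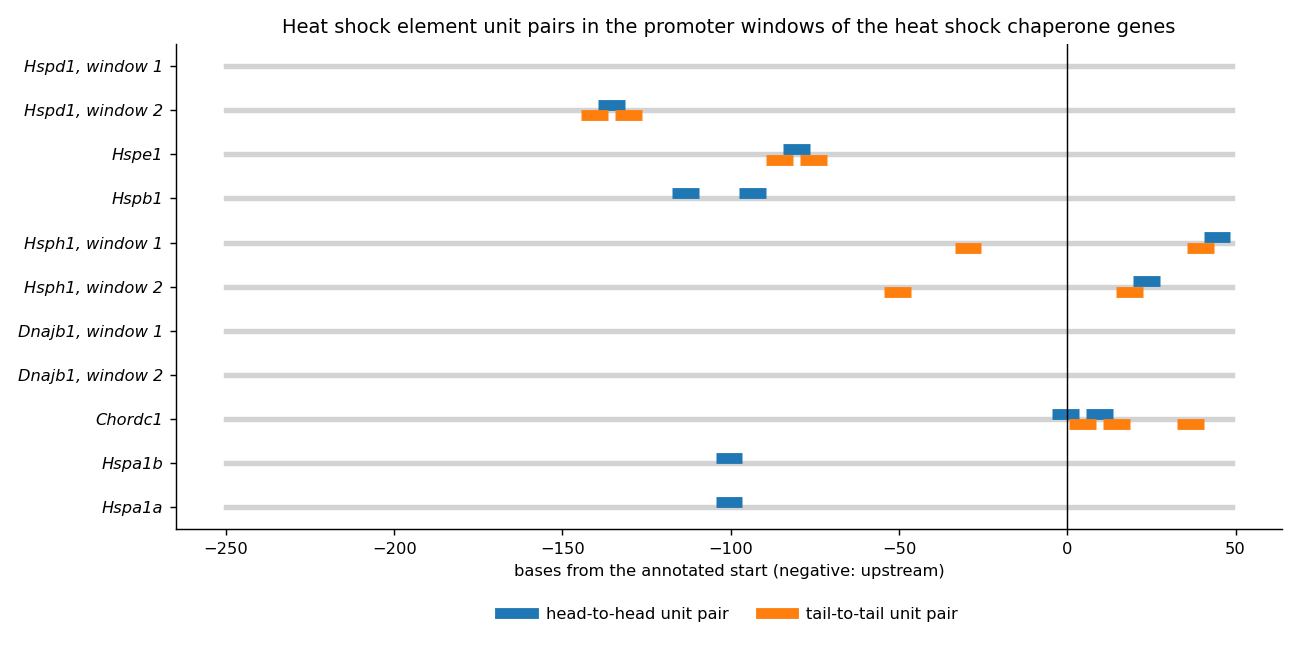
Positions of the matched unit pairs in each of the 11 promoter windows of the 8 genes, in bases from the annotated start; grey lines are the windows, blue bars head-to-head pairs and orange bars tail-to-tail pairs. Matches lie upstream in *Hspd1*, *Hspe1*, *Hspb1*, *Hspa1a* and *Hspa1b* and around the start in *Chordc1*, on both sides of it in *Hsph1*, and *Dnajb1* has none.

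*Hspa1b* and *Hspa1a* encode the stress-inducible HSP70 proteins. Both were expressed at a low level, at a mean of 0.605 and 0.329 RPKM, and both were lowest in stressed males. *Hspa1b* (ENSMUSG00000090877) lies on the minus strand of chromosome 17 of NCBIM37 from 35093381 to 35096183, and *Hspa1a* (ENSMUSG00000091971) from 35106144 to 35109069 on the same strand, with 9960 bases between them. *Hspa1b* had 2.21, 2.64 and 1.74 CPM in the 3 libraries of unstressed males, 0.478, 0.489 and 0.642 in stressed males, 1.80, 1.52 and 3.23 in unstressed females and 1.50, 1.86 and 2.25 in stressed females. All 3 libraries of stressed males thus lay below the 9 others, and the female groups overlapped each other. The log2 fold change was -1.995 (SE 0.35) in males, a fitted ratio of 0.251, and -0.14 (SE 0.25) in females. In whole punches, fewer cells of a type and less RNA per cell cannot be told apart.

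*Hspa1a* had 0.900, 1.14 and 0.947 CPM in unstressed males, 0.554, 0.361 and 0.310 in stressed males, 1.06, 1.07 and 1.57 in unstressed females and 0.932, 1.45 and 1.27 in stressed females. Again the stressed males lay below the 9 other libraries, while the remaining groups overlapped, so that the order of their means (NSF, SF, NSM) did not exceed their spread. The male log2 fold change was -1.303 (SE 0.28) and the female one -0.01 (SE 0.21).

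These values rest on few reads, 14 to 74 per library for *Hspa1a* and 19 to 152 for *Hspa1b*. The coding sequences of both genes were 99.6% identical, and of the runs of 50 bases in their transcripts 61.0% (*Hspa1a*) and 61.4% (*Hspa1b*) recurred elsewhere in the genome, nearly all of them in the other copy, so the split of reads between them is uncertain. Summed over both genes, unstressed males had 3.11, 3.78 and 2.68 CPM, stressed males 1.03, 0.850 and 0.953, unstressed females 2.86, 2.59 and 4.80 and stressed females 2.44, 3.31 and 3.52. The sum, which does not depend on how reads were split between the copies but still on whether reads that fit both were counted, had a log2 fold change of -1.74 in males and -0.09 in females.

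*Hspa8*, the constitutive HSP70 of the cytosol, had the highest level of the 10 genes at a mean of 181 RPKM. It lies on chromosome 9 of NCBIM37 from 40609067 to 40613283. It had 813, 871 and 762 CPM in unstressed males, 782, 736 and 648 in stressed males, 738, 661 and 722 in unstressed females and 769, 753 and 751 in stressed females. The male groups overlapped, and in females all stressed libraries lay above all unstressed ones. The log2 fold change was -0.18 (SE 0.07) in males and 0.10 (SE 0.07) in females. Without stressed male library 3 the male value was -0.10.

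*Hsph1*, an HSP110 protein that exchanges the nucleotide of HSP70 (chromosome 5 from 150416862 to 150438951), had 490, 517 and 460 CPM in unstressed males, and each of these libraries lay above the 9 others. Stressed males had 436, 444 and 382 CPM, unstressed females 416, 405 and 422, and stressed females 445, 411 and 418, and these 3 groups overlapped. Stressed males differed by a log2 fold change of -0.22 (SE 0.06), and stressed females by 0.03 (SE 0.06).

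*Dnajb1* encodes an inducible HSP40, the J-domain partner of HSP70, and lies on chromosome 8 from 86132074 to 86135801. It had 50.4, 49.8 and 44.5 CPM in unstressed males and 38.7, 37.7 and 35.2 in stressed males. Unstressed females had 38.1, 38.4 and 44.0 CPM and stressed females 43.5, 44.1 and 43.3. The unstressed males lay above the 9 other libraries, and the fitted ratio of stressed to unstressed was 0.771 in males and 1.09 in females (log2 SE 0.07 and 0.06).

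*Hsp90aa1* encodes the inducible HSP90 protein of the cytosol and was the second in level, at a mean of 141 RPKM. It lies on chromosome 12 from 111928815 to 111940938. It had 583, 610 and 579 CPM in unstressed males, 596, 576 and 491 in stressed males, 558, 486 and 518 in unstressed females and 541, 556 and 575 in stressed females. Both comparisons of stressed with unstressed mice overlapped, with log2 fold changes of -0.10 (SE 0.07) in males and 0.10 (SE 0.07) in females. Without stressed male library 3 the male value was -0.01.

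*Chordc1*, whose protein has CHORD domains and binds HSP90, was the gene in which both male groups stood apart from all other libraries. It lies on chromosome 9 from 18096711 to 18118444. It had 76.6, 83.8 and 80.3 CPM in unstressed males, 52.2, 54.0 and 53.7 in stressed males, 61.2, 60.5 and 65.6 in unstressed females and 66.6, 58.8 and 61.6 in stressed females. The unstressed males lay above and the stressed males below all female libraries, while the female groups overlapped. With stress it changed by a log2 fold change of -0.59 (SE 0.06) in males and -0.00 (SE 0.05) in females.

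*Hspb1*, a small heat shock protein that holds unfolded proteins without using ATP (chromosome 5 from 136363789 to 136365433), had 3.02, 4.02 and 4.28 CPM in unstressed males and 2.09, 1.72 and 2.19 in stressed males. Unstressed females had 2.89, 2.80 and 3.50 CPM and stressed females 3.07, 3.17 and 3.28. Its stressed males lay below the 9 other libraries, and the other groups overlapped. In *Hspb1* the log2 fold change was -0.90 (SE 0.16) in males and 0.06 (SE 0.15) in females, at 81 to 217 reads per library.

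*Hspd1* and *Hspe1* encode HSP60 and HSP10, the chaperonin of the mitochondrial matrix and its lid. They lie on opposite strands of chromosome 1, *Hspd1* from 55134679 to 55145087 and *Hspe1* from 55144976 to 55148151, and share 112 bases, in which reads of a library that does not mark strand cannot be assigned to either. *Hspd1* had 131, 134 and 122 CPM in unstressed males, 134, 130 and 110 in stressed males, 125, 113 and 111 in unstressed females and 124, 125 and 121 in stressed females, and all 4 groups overlapped with their neighbors. *Hspe1* had 46.6, 52.3 and 47.7 CPM in unstressed males, 46.5, 40.1 and 41.0 in stressed males, 44.2, 43.9 and 42.3 in unstressed females and 44.2, 44.9 and 44.1 in stressed females. In *Hspe1* the unstressed males lay above the 9 other libraries, the lowest of them by less than 0.1 CPM. In males the log2 fold change was -0.05 (SE 0.07) for *Hspd1* and -0.20 (SE 0.06) for *Hspe1*, and in females 0.09 (SE 0.07) and 0.03 (SE 0.06). Without stressed male library 3 the male value of *Hspd1* turned to 0.03.

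For *Hspa8*, *Hsp90aa1*, *Hspb1*, *Hspd1* and *Hspe1* 68.4%, 62.6%, 57.4%, 51.9% and 46.5% of the runs of 50 bases in their transcripts recurred elsewhere in the genome, so their counts are uncertain where the counting could split or drop such reads. The share was 0.7% for *Dnajb1* and 0 for *Hsph1* and *Chordc1*.

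**Figure D2:**
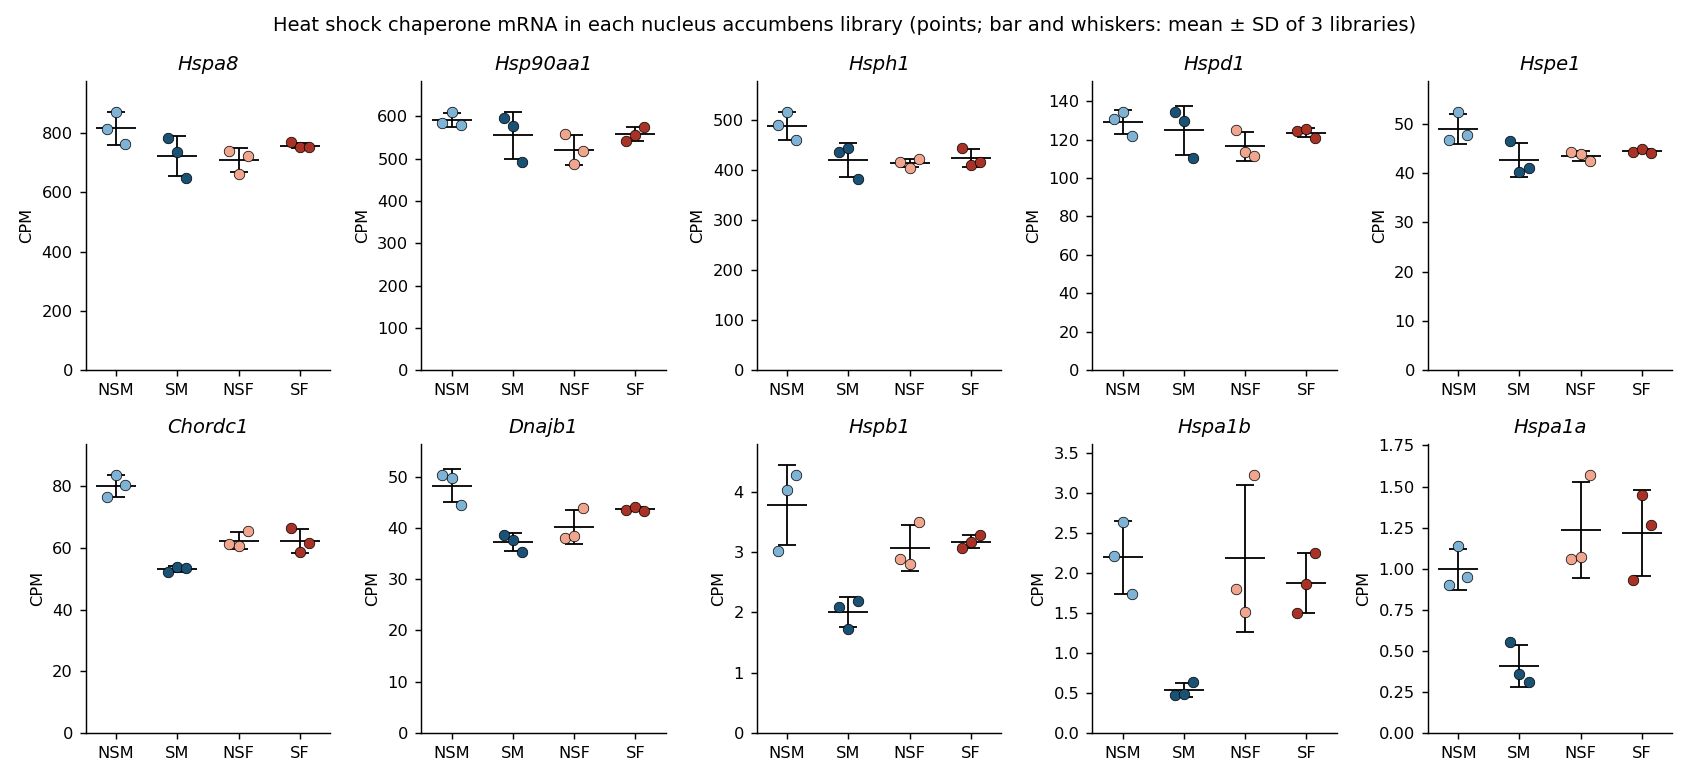
Level of each of the 10 genes in CPM (vertical axes, starting at 0) in the 3 libraries of NSM, SM, NSF and SF; points are libraries, bars and whiskers the mean ± SD of 3 libraries, and panels are ordered by mean RPKM. Stressed males lie lowest and apart from the 9 other libraries in *Chordc1*, *Hspb1*, *Hspa1b* and *Hspa1a*, and unstressed males highest and apart in *Hsph1*, *Hspe1*, *Chordc1* and *Dnajb1*.

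Across the 10 genes the male log2 fold changes ran from -1.995 to -0.05 and the female ones from -0.14 to 0.12. All 10 lay below 0 in males, where 52.7% of all tested genes did, and 3 of 10 in females, where 51.6% did. Of the 10 genes, 4 (*Hspa1b*, *Hspa1a*, *Hspb1* and *Chordc1*) were at least 1.3-fold lower in stressed males, as were 8.83% of all genes without a test, and *Dnajb1* lay just short of that ratio. None of the 10 differed by 1.3-fold in females, where 7.67% of all genes did. For 7 of the 10 genes each stressed male library lay below each unstressed one (11.7% of all genes), and for *Hspa8* alone did the female groups separate, stressed above unstressed (4.90%). Stressed males lay below the 9 other libraries in 4 genes (2.90% of all genes), and unstressed males above them in 4 (2.30%), *Chordc1* being in both sets. The median log2 fold change was -0.30 in males and 0.05 in females, beside -0.01 and -0.00 over all tested genes. Because these comparisons chose the genes, nothing is read from the counts.

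**Figure D3:**
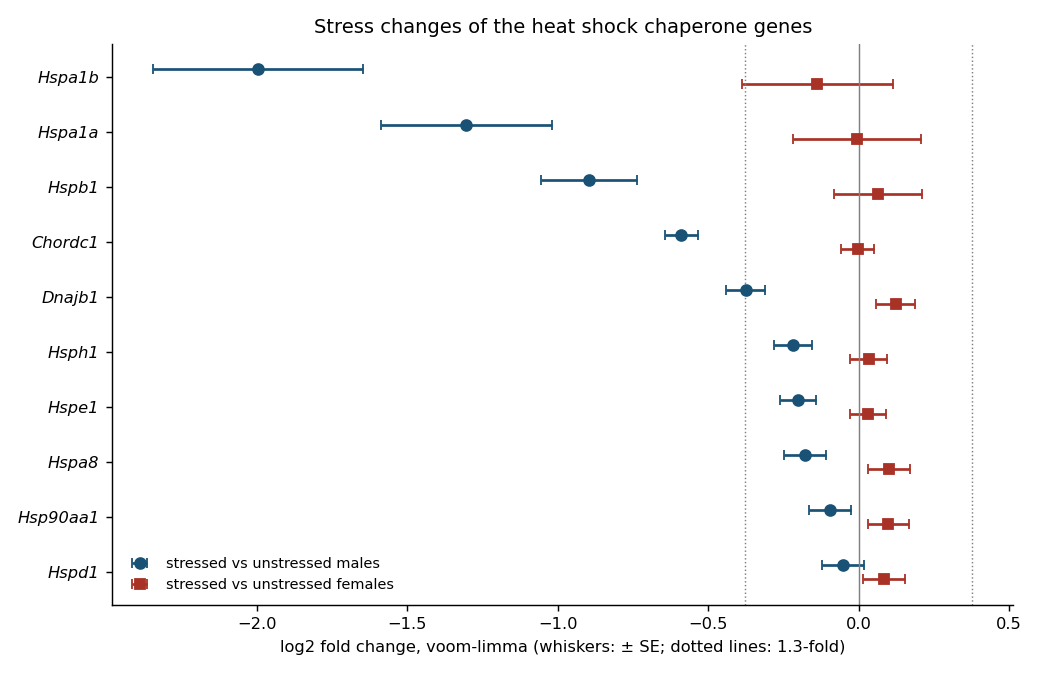
Log2 fold change of stressed against unstressed mice (horizontal axis) for each gene, in males (blue circles) and females (red squares), with whiskers of ± SE from limma and dotted lines at 1.3-fold. Male values run from -1.995 for *Hspa1b* to -0.05 for *Hspd1*, and female values stay between the dotted lines.

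The difference between the female and the male log2 fold change was above 0 in all 10 genes, from 0.14 (SE 0.10) for *Hspd1* to 1.86 (SE 0.43) for *Hspa1b*. It was 1.298 (SE 0.36) for *Hspa1a*, 0.96 (SE 0.22) for *Hspb1*, 0.59 (SE 0.08) for *Chordc1* and 0.50 (SE 0.09) for *Dnajb1*, and at most 0.28 for the others. In all, 5 genes thus exceeded a 1.3-fold difference, as did 7.92% of all genes in that direction. For *Hspa8*, *Dnajb1*, *Hspb1* and *Hspe1*, 4 of the 10, each stressed male library lay below the unstressed male mean and each stressed female library above the unstressed female mean, as in 3.07% of all genes. This comparison holds the same libraries as the changes within each sex.

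Without stress, most of these genes had lower fitted values in females than in males, none of them by 1.3-fold (3.84% of all genes). The log2 fold change of unstressed females against unstressed males lay below 0 in 9 of the 10 genes (49.0% of all genes), from -0.36 (SE 0.05) for *Chordc1* to -0.09 (SE 0.24) for *Hspa1b*, and was 0.29 (SE 0.22) for *Hspa1a*. For *Hspa8*, *Hsp90aa1*, *Dnajb1*, *Hsph1*, *Chordc1* and *Hspe1* all unstressed female libraries lay below all unstressed male ones (8.45% of all genes). The highest mean was that of NSM in 9 genes. Among stressed mice, the females lay entirely above the males in *Hspa1a*, *Hspa1b*, *Dnajb1*, *Chordc1* and *Hspb1* (12.8% of all genes).

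The genes also varied within groups. A score, the mean over the 10 genes of log2 CPM standardised across the 12 libraries, was 0.817, 1.46 and 0.607 in unstressed males, -0.246, -0.763 and -1.48 in stressed males, -0.104, -0.650 and -0.0367 in unstressed females and 0.120, 0.135 and 0.144 in stressed females. Stressed females lay close together and between the male groups. Over the 45 pairs of genes the median Pearson r of log2 CPM was 0.620 in the 12 libraries (from -0.147 to 0.898), and 0.336 for deviations from group means, which lay above 0 in 33 pairs. The 12 libraries share the group differences that chose the genes, so these correlations are given as a description.

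Levels of other cell types' markers moved with the male groups and between the unstressed sexes. The summed level of 8 cortical glutamatergic markers was 101 to 124 CPM in unstressed males and 177 to 303 in stressed males, 127 to 448 in unstressed females and 147 to 229 in stressed females. Of these 8 markers 2 rose in males at an unadjusted limma p under 0.05 and 1.3-fold (2.36% of all genes), 5 were higher in unstressed females than in unstressed males (4.17%), and 6 had a female change with stress below the male one (2.17%). All 5 red blood cell genes rose in males (adjusted limma p under 0.05), where 276 of all 18593 tested genes did. At the thresholds given for the cortical markers 2 were higher in unstressed females than in unstressed males, and all 5 had a female change below the male one. Their sum was 21.8 to 27.4 CPM in NSM, 38.5 to 47.2 in SM, 29.8 to 38.9 in NSF and 28.8 to 31.9 in SF. The sum of 5 oligodendrocyte markers was 4275 to 4779 CPM in NSM, 5158 to 5199 in SM, 4879.9 to 5249.5 in NSF and 4790.2 to 5518 in SF. That of 5 microglial markers was 205 to 225 CPM in NSM, 232 to 259 in SM, 218 to 229 in NSF and 224 to 254 in SF, and that of 5 markers of smooth muscle and pericytes 129 to 132 CPM in NSM, 138 to 155 in SM, 136 to 143 in NSF and 137 to 142 in SF. Markers of choroid plexus (6 genes) reached 111 CPM in unstressed male library 1 and 33.6 to 45.2 CPM in the others, and those of endothelium (6) and astrocytes (5) overlapped between the male groups. No listed marker was at 0 in any library. With the cortical marker level as a covariate the male log2 fold change was -2.43 for *Hspa1b*, -1.38 for *Hspa1a*, -1.03 for *Hspb1*, -0.62 for *Chordc1*, -0.38 for *Dnajb1* and -0.10 for *Hspe1*, and that of *Hspd1* turned to 0.02. The part of the other cell types in these values was not tested.

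**Figure D4:**
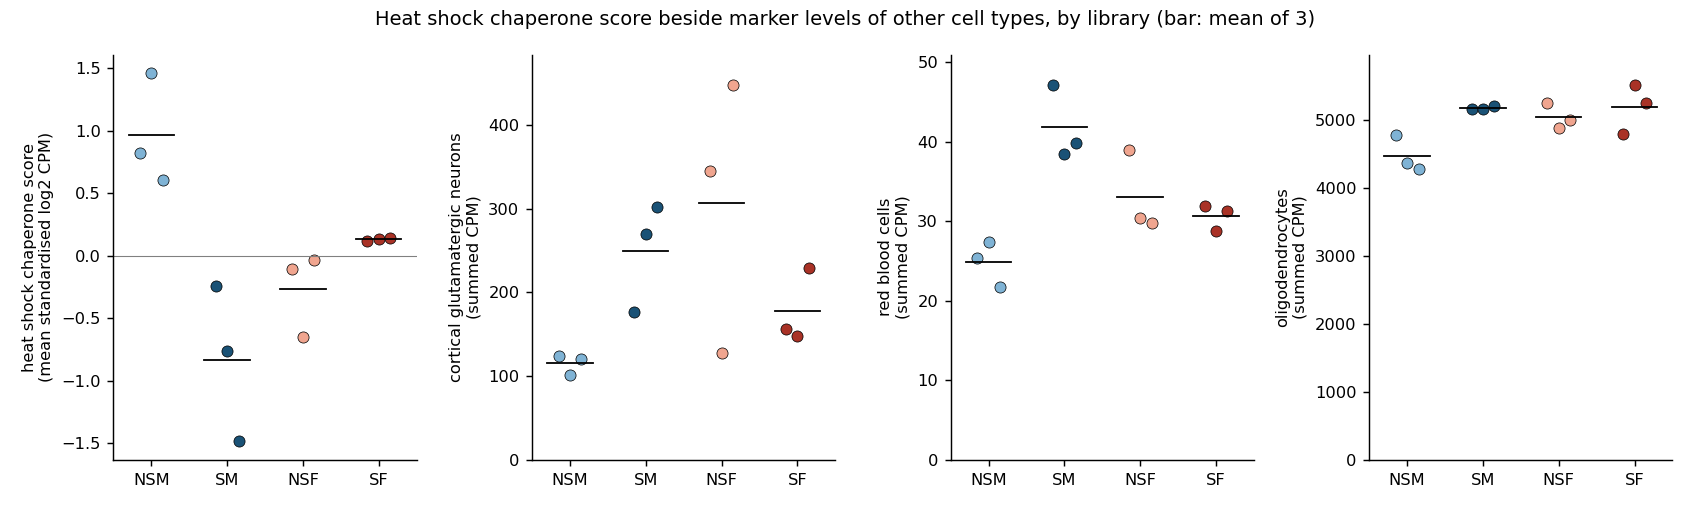
The score of the 10 genes (first panel, mean standardised log2 CPM) beside the summed CPM of 8 cortical glutamatergic, 5 red blood cell and 5 oligodendrocyte markers, with one point per library and bars at the mean of 3. Unstressed males have the highest scores and lie below the 9 other libraries in all 3 marker sums.

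To see how the wider machinery behaved, 62 other chaperones (most of them cytosolic or mitochondrial), co-chaperones and HSF1-related genes were taken as a list, of which 61 were tested. This list was chosen with earlier results of these data known, so its counts beside the shares of all genes are a description. A gene was taken as regulated by SCVS when limma gave an unadjusted p under 0.05 and the groups differed at least 1.3-fold. In stressed males 6 of the 61 fell, against 4.08% of all genes, 1 rose, against 2.36%, and 54 did not pass. At a Benjamini-Hochberg adjusted p under 0.05, whatever the fold, 8 were lower and none higher, against 1.84% of all genes lower. In females none of the 61 passed, against 1.73% of all genes, and 2 did at an unadjusted limma p under 0.05 alone, as did 4.23% of all genes (*Hsf1* lower, *Hspb6* higher). By the tests of edgeR and DESeq2, at the same thresholds, none of the list passed in females either. The median log2 fold change of the list was -0.04 in males and 0.02 in females, beside -0.01 and -0.00 over all genes. The male count was 4 without unstressed male library 2 or 3 and 3 without stressed male library 2. With the cortical marker level as a covariate 1 of all genes passed the adjusted p in males, whatever the fold, against 618 without it.

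Among the regulators, *Hsf1* itself fell in males. It had 28.0, 30.1 and 37.3 CPM in unstressed males and 23.7, 20.7 and 26.9 after stress, without overlap, and its log2 fold change was -0.41 (SE 0.10, adjusted p = 0.0463, limma). Unstressed females had 31.7, 33.7 and 35.3 CPM and stressed females 29.0, 28.5 and 28.0, also without overlap. The female log2 fold change was -0.24 (SE 0.10, adjusted p = 0.948, limma). The call in males was lost without unstressed male library 3 (-0.29) or stressed male library 2 (-0.31). *Hsbp1*, a small protein that binds HSF1 and the regulator with the highest level (151 RPKM), had a log2 fold change of 0.07 (SE 0.05, adjusted p = 0.397, limma) in males.

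Of 16 co-chaperones *Bag2* and *Bag3*, which bind HSP70 and steer the fate of its clients, fell in males. *Bag3* had 5.84, 6.38 and 5.56 CPM in unstressed and 4.43, 4.51 and 4.50 with stress (log2 fold change -0.40, SE 0.10, adjusted p = 0.0453, limma), and lost its call without unstressed male library 2 (-0.34) and with the cortical covariate (-0.24). *Bag2* had a log2 fold change of -0.38 (SE 0.13, adjusted p = 0.127, limma), at the fold threshold, and lost its call under 9 of 25 alternatives, among them those without unstressed male library 1 (-0.36), stressed male library 1 (-0.38) or 2 (-0.31) and unstressed female library 1 or 3 (both -0.38). *Stip1*, which joins HSP70 to HSP90 and had the highest level of these genes (75.3 RPKM), stayed under 1.3-fold with a log2 fold change of -0.24 (SE 0.06, adjusted p = 0.0341, limma) and no overlap between the male groups.

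Of 11 J-domain genes *Dnajb5* fell in males, from 130, 137 and 136 to 98.5, 100 and 110 CPM (log2 fold change -0.38, SE 0.08, adjusted p = 0.0211, limma). Its value lay at the fold threshold, and the call was lost without any one of unstressed male libraries 2 and 3, stressed male libraries 1 and 2 and unstressed female libraries 1 and 3, with log2 fold changes from -0.38 to -0.35, and by DESeq2 or with its size factors (both -0.37). *Dnaja2*, the most abundant of the 11 (64.0 RPKM), had a log2 fold change of 0.07 (SE 0.06, adjusted p = 0.504, limma). Among 5 other HSF1 targets *Serpinh1*, the collagen chaperone HSP47, fell from 12.9, 14.3 and 14.8 to 9.36, 9.89 and 10.7 CPM (-0.48, SE 0.12, adjusted p = 0.0466, limma). It kept its call under all 25 alternatives, which used the unadjusted p except where the adjusted p was itself the alternative. *Dedd2* fell from 8.84, 10.7 and 12.0 to 8.13, 7.25 and 8.42 CPM (-0.39, SE 0.11, adjusted p = 0.0673, limma), a call lost without unstressed male library 2 (-0.36) or 3 (-0.28) or stressed male library 2 (-0.32), with quantile normalization (-0.36) and at an adjusted p under 0.05. The polyubiquitin gene *Ubb*, at 356 RPKM, had a log2 fold change of 0.03 (SE 0.07, adjusted p = 0.846, limma).

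The remaining groups held few changes. None of 8 other HSP70 and HSP110 genes passed in either sex, and *Hspa9*, the mitochondrial HSP70 and the most abundant of them (54.6 RPKM), had a log2 fold change of 0.12 (SE 0.05, adjusted p = 0.242, limma) in males. *Hsp90ab1*, the constitutive HSP90 and at 515 RPKM the most abundant gene of the list, had -0.09 (SE 0.06, adjusted p = 0.378, limma). None of the 8 subunits of the cytosolic chaperonin CCT passed (1 was lower in males at an unadjusted limma p under 0.05 alone), with *Cct2* (71.5 RPKM) at 0.04 (SE 0.07, adjusted p = 0.775, limma). Of 7 small heat shock proteins *Cryab*, the most abundant (49.8 RPKM), had -0.00 (SE 0.08, adjusted p = 0.979, limma), and *Hspb2* rose in males, from 0.0178, 0.0813 and 0.0789 to 0.101, 0.106 and 0.155 CPM. This log2 fold change of 1.14 (SE 0.45, adjusted p = 0.170, limma) rests on a mean of 5.67 reads per library, and the call was lost under 8 of 24 alternatives, which were the tests of edgeR (1.04) and DESeq2 (1.07), the adjusted p, the fit to 6 libraries (1.15), quality weights (0.85), the cortical covariate (0.98) and leaving out unstressed male library 1 (0.54) or stressed male library 3 (0.95).

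**Figure D5:**
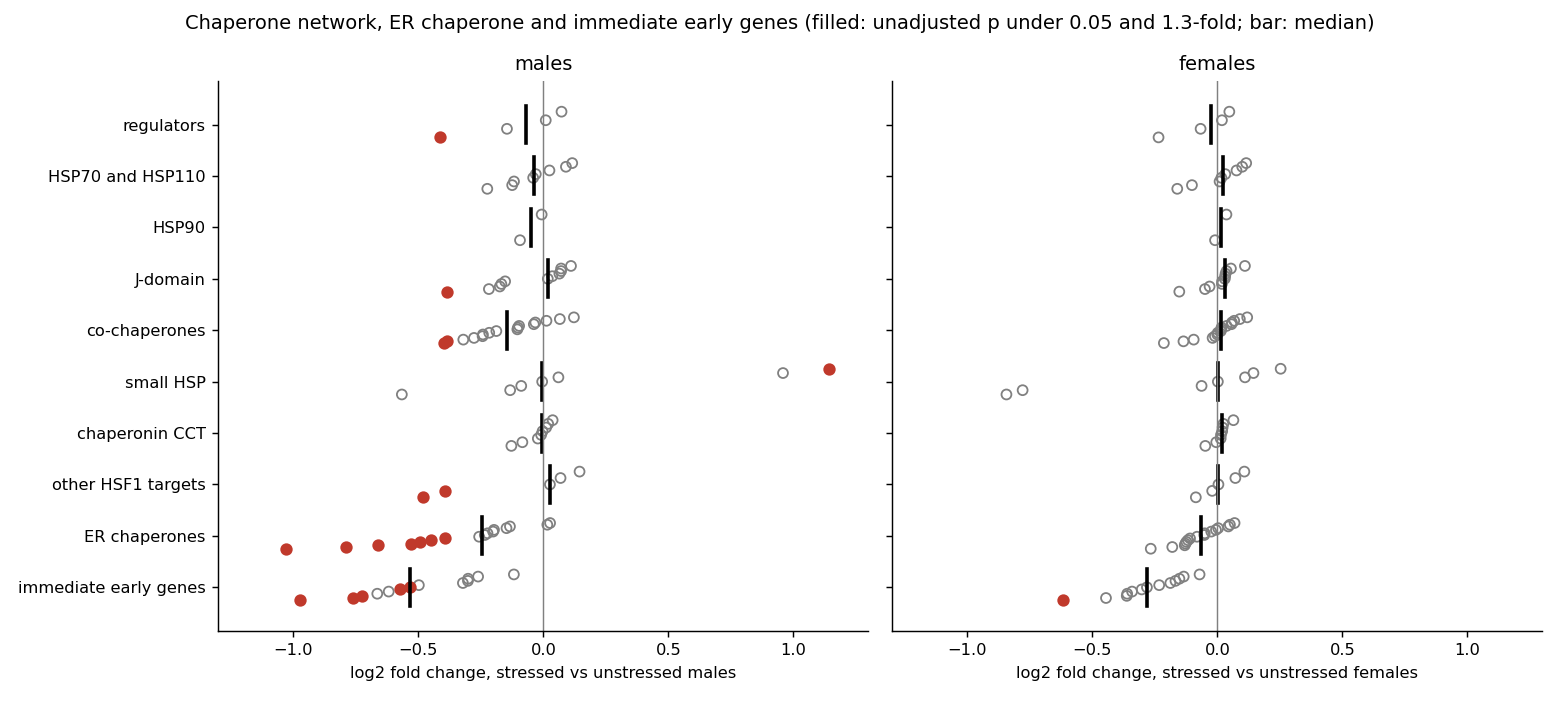
Log2 fold change of stressed against unstressed males (left) and females (right) for the tested genes of each group of the chaperone list and of 2 comparison lists; filled red circles met an unadjusted limma p under 0.05 and 1.3-fold, open circles did not, and bars are medians. In males 6 genes of the chaperone list are filled below 0 and 1 above it, and in females none of that list is filled.

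The sex-by-stress interaction was tested for the same list. *Bag3* (0.49, SE 0.14, adjusted p = 0.263, limma) and *Serpinh1* (0.49, SE 0.17, adjusted p = 0.379, limma) met the thresholds with a female change above the male one, and *Hspb2* (-1.92, SE 0.60, adjusted p = 0.318, limma) with one below it, so 3 of 61 passed beside 4.42% of all genes, and none at an adjusted p under 0.05. The count was 5 without unstressed male library 1 or unstressed female library 2, and 1 with the cortical covariate.

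A pair of further lists, also chosen with earlier results known, were set beside the chaperone list, and their counts are likewise a description. Of 16 chaperones and folding factors of the endoplasmic reticulum 7 fell in stressed males, against 4.08% of all genes. At an adjusted limma p under 0.05, 10 were lower, against 1.84%, and the male median log2 fold change was -0.25. None passed in females, where the median was -0.07. At an unadjusted limma p under 0.05 alone 2 were lower in females, as were 425 of all 18593 tested genes. Of 13 immediate early genes 5 fell in males, against the same 4.08%, and 2 at an adjusted limma p under 0.05, against 1.84% (median -0.53), and 1, *Npas4*, in females, where 1.73% of all genes passed (median -0.28).

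The genes whose pattern was most like the score were sought among 17564 genes with a mean of at least 10 reads, by Pearson r of log2 CPM over the 12 libraries. The nearest 8 were *Ahsa1* (0.946), ENSMUSG00000094724 (0.942), *Dnaja1* (0.941), *Fkbp4* (0.923), *Fam13b* (0.915), *Paip2* (0.902), *Stip1* (0.902) and *Dnajc3* (0.896). *Ahsa1*, which stimulates the ATPase of HSP90, *Fkbp4*, a co-chaperone of HSP90 at steroid receptors, *Dnaja1*, a J-domain partner of HSP70, and *Stip1* belong to the chaperone list and *Dnajc3* to that of the endoplasmic reticulum. *Ahsa1* had 93.1, 93.7 and 89.6 CPM in unstressed males, 80.6, 80.6 and 76.6 in stressed males, 85.8, 83.9 and 85.5 in unstressed females and 84.5, 87.0 and 86.1 in stressed females. Its unstressed males lay above and its stressed males below all other libraries, and its male log2 fold change was -0.22 (SE 0.04). Those of *Fkbp4* and *Dnaja1* were -0.28 (SE 0.04) and -0.22 (SE 0.06). Because the score holds the male difference, these values are given without a test. The male log2 fold change was -0.71 (SE 0.14) for ENSMUSG00000094724, -0.23 (SE 0.06) for *Dnajc3*, -0.17 (SE 0.04) for *Fam13b* and -0.07 (SE 0.04) for *Paip2*. For deviations from group means, which leave out the differences between groups, r ran from 0.628 for *Dnajc3* to 0.873 for *Dnaja1*. These deviations were also part of the r that ranked the genes, so high values follow in part from the ranking.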

How the data were processed

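The authors made mRNA libraries of the NAc (3 per sex and stress condition) with a kit that does not mark strand, aligned the reads with TopHat2 to NCBIM37 (mm9) and assigned them to Ensembl genes with HTSeq. The table they deposited holds raw read counts, not normalized. The strand setting and the treatment of reads that map to several places are not given in the sources used here. The 12 small RNA libraries of the series were not used.

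A gene was kept if over 5 of its reads were found in 80% or more of the libraries of any one group. Counts were then scaled by TMM (edgeR 4.0.16) and fitted with voom and limma 3.58.1 in R 4.3.3, with one mean per group over all 12 libraries, after the model and thresholds of the study's methods. Adjusted p values follow Benjamini and Hochberg, over the 18593 genes tested. RPKM used the exon lengths of GENCODE on NCBIM37. The lists and plots were made in Python 3.11.15 with pandas 2.3.3, numpy 2.4.6 and matplotlib 3.10.9. The fit was tested on simulated data, and replicate libraries all differed by more than sampling noise. One gene of the chaperone list, *Hspa14*, carried 2 identifiers under its symbol and was left out of the expression results, though its promoter window was counted.

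The 10 genes, the lists and the alternatives were chosen with earlier results of these data known. Beside the 10, the text names the genes of the chaperone list that were regulated by SCVS, the most abundant gene of each of its groups, and the 8 genes most like the score. As alternatives, the tests of edgeR (quasi-likelihood) and DESeq2 1.42.0 were run, with other scalings, filters and thresholds, fits to 6 libraries, quality weights, a replicate block, a cortical covariate and fits without one library each. With 3 pools per group, p values set the difference between groups against the spread between pools.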

Additional observations from a re-analysis of the deposited data

Results flagged for a closer look

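In 4 of the 10 genes every stressed male library lay below the mean of the unstressed males and every stressed female library above the mean of the unstressed females, as in 3.07% of all tested genes. The female minus the male log2 fold change was 0.28 for *Hspa8*, 0.50 for *Dnajb1*, 0.96 for *Hspb1* and 0.23 for *Hspe1*, and this difference was not tested, because the genes were chosen by it. In the chaperone list only the 7 genes regulated in males were looked at in this way, so the male part of the pattern was largely set beforehand. Among these the same held for *Bag3*, with a difference of 0.49 (adjusted p = 0.263, limma). The opposite, higher in stressed males and lower in stressed females, held for *Hspb2*. Its difference was -1.92 (adjusted p = 0.318, limma) at a mean of 5.67 reads per library.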

How the results depend on the processing

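The median log2 fold change of the 10 genes stayed between -0.35 and -0.26 in males and between 0.03 and 0.11 in females under 23 alternatives. Of 232 single male values under an alternative 230 lay below 0, the exceptions being *Hspd1* without stressed male library 3 and with the cortical covariate, and of 232 female values the largest size was 0.40 (*Hspa1b*). Leaving out a library of the other sex hardly moves a value, and the sum of *Hspa1a* and *Hspa1b* counts under each of them. The genes were chosen with these changes known, so the tally is a description. Levels of *Hspa1a*, *Hspa1b* and *Hspb1* are limited by their read numbers. The number of regulated genes depended on the thresholds, and also on the filter, the test, the weights and single libraries. Of all genes 1198 were regulated in males, 322 in females, 822 in the interaction and 988 between unstressed females and males, and these counts became 256, 0, 5 and 39 at an adjusted p under 0.05 and 3992, 786, 1775 and 2859 at an unadjusted p under 0.05 without a fold threshold. With at least 1 read in any library as the filter the last 3 were 865, 1350 and 1541. In females 194 genes were regulated by DESeq2, 205 with at least 10 reads in every library and 531 with quality weights, and with the cortical covariate 458 between the unstressed sexes. With that covariate 1 gene passed an adjusted p under 0.05 in males and 0 in the interaction, whatever the fold, against 618 and 5. The male count was 1180 by DESeq2, 1698 with quality weights and 79 to 932 with one library left out. Without unstressed female library 2, 60 genes passed it in females, 199 in the interaction and 458 between the unstressed sexes, against 0, 5 and 53. By DESeq2 these 3 counts were 3, 135 and 484. Leaving out any other single library kept the female count at 0. In the chaperone list 7, 0, 3 and 4 genes were regulated in these comparisons, 4, 0, 0 and 0 at the adjusted p and 17, 2, 13 and 16 without a fold threshold. It held 4 in males by DESeq2, 2 in females when only the 6 female libraries were fitted, 1 in the interaction and 1 between the unstressed sexes with the cortical covariate, and 2 between the unstressed sexes with at least 10 reads in every library. With one library left out the counts ran from 821 to 1609, 239 to 630, 663 to 1088 and 680 to 1217 over all genes, and from 3 to 9, 0 to 1, 3 to 5 and 2 to 5 in the chaperone list. Same-numbered libraries deviated from their group means with correlations of 0.0244, 0.000725 and 0.316 in males and 0.100, 0.0756 and 0.107 in females. Every female library and the male libraries numbered 3 correlated best with their own number, and the male libraries numbered 1 and 2 did not (0.181 and 0.150 when crossed). The meaning of the numbers is not given, and they were not taken as pairs. With the replicate number as a block 1309, 362, 896 and 1000 of all genes and 8, 0, 4 and 4 of the chaperone list were regulated. At an adjusted p under 0.05, whatever the fold, the block gave 998 genes in males and 562 between the unstressed sexes, against 618 and 53. The cause of these differences was not tested.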
